A study of Drosophila melanogaster with 2 samples.

Results

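The regions described here are 887 of the 3810 chromosomal peaks in a CG31224-eGFP ChIP-seq list, chosen because their summits sit just upstream of promoters whose annotated coding starts lie on a single strand. A summit, the base of highest signal in a peak, was kept when every protein-coding transcription start site (TSS) within 500 bp of it lay on the same strand and the nearest of these TSSs lay downstream of it or at it. They are called upstream summits below. Among the listed peaks, which had passed the authors' own threshold, no measured value other than the position of the summit entered the choice. The data came from whole embryos of Drosophila melanogaster, collected from 0 to 24 h of development, of the transgenic strain CG31224-GFP, which carries CG31224 fused to eGFP; chromatin bound by the fusion was recovered with an antibody against GFP and sequenced (ChIP-seq). The study has 1 group of 2 biological replicates of this strain, with no second genotype or stage, and all measurements are peak lists. Whole embryos mix all cell types and a full day of development, so a peak does not say in which cells or at what age the protein was recovered there, and no sample without the fusion was analysed here. The main list was made by the authors from both replicates, and each replicate also has a list of its own, which held 586 upstream summits among 2402 peaks (24.4%) in replicate 1 and 666 among 2602 (25.6%) in replicate 2.

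Promoters in flies are often grouped by the words found in their DNA. Broadly active genes, such as those for ribosomal proteins, tend to carry the DNA replication-related element (DRE), which is bound by DREF and, at overlapping letters, by the insulator protein BEAF-32, or one of several other core promoter words such as motif 7, whereas genes with restricted expression more often carry a TATA box close to the TSS. Where genes are transcribed away from each other from a shared stretch of DNA, one peak can belong to either gene; a one-directional promoter leaves a single candidate strand. CG31224 is the gene of the tagged protein, known by its annotation symbol.

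The stretches reaching 50 bp to either side of upstream summits are shown for 10 of the 14 strongest members and for the 4 ribosomal protein genes with the highest signal, because they include windows with and without the words to which the results below refer. All windows were read from the RefSeq copy of the dm6 assembly and are printed 5′ to 3′ on the strand of the gene. Capitals mark, on either strand, CGATA (the core of the DRE, which lies inside the full word TATCGATA), TATAAA (the TATA box word), motif 7, or one of 10 overlapping GC-rich words that recur in the strongest peaks far from genes (in the 150 strongest of those, CAGGCGC was found in 28 windows, GCGCCCA in 19, AGGCGCC in 15, AACAGGC in 28, ACAGGCG in 21, GCGCTCA in 16, GGCGCCC in 14, ACCAGGC in 19, CGCCCAG in 14 and CCAGGCG in 17). The window of t-cup, the member with the highest signal, is at chr2L:12497729-12497829 (minus strand) and holds none of them, and neither do those of Ugalt (chrX:2703841-2703941, minus strand) and PNPase (chr3R:31404603-31404703, minus strand).
t-cup: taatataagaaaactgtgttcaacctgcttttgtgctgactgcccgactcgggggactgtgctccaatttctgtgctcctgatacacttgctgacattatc
Ugalt: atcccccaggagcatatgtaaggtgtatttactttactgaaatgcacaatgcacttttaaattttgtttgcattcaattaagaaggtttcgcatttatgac
PNPase: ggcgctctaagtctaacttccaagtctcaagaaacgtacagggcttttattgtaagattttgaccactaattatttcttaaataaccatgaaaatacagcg
The windows of alpha-Est8 (chr3R:7515851-7515951, minus strand), CG32301 (chr3L:2243961-2244061, plus strand), Srrm234 (chr3L:1664375-1664475, minus strand), MsR2 (chr3L:2282742-2282842, plus strand) and CG4565 (chr3R:10852402-10852502, plus strand) each hold a run of the GC-rich words.
alpha-Est8: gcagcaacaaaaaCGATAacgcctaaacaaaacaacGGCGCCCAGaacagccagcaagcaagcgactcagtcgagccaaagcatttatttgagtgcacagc
CG32301: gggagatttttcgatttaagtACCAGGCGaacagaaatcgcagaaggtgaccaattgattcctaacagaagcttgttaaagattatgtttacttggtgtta
Srrm234: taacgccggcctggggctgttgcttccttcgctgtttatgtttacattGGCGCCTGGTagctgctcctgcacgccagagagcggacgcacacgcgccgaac
MsR2: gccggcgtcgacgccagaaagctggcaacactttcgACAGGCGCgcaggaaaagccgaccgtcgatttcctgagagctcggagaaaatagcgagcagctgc
CG4565: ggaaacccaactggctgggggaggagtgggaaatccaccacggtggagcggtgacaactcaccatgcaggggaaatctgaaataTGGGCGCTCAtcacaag
The windows of CG14100 (chr3L:19590564-19590664, minus strand) and CG18549 (chr3R:12449113-12449213, plus strand) are rich in A and T; the first has 71.3% A+T and a CGATA word, the second 77.2% and a TATA box word.
CG14100: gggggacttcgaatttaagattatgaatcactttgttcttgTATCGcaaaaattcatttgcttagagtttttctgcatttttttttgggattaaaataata
CG18549: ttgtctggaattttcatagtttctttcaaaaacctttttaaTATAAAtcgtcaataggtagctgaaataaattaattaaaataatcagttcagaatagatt
The windows of the ribosomal protein genes RpS28b (chrX:9554531-9554631, plus strand) and RpL22 (chrX:765158-765258, minus strand) show CGATA at 3 places in RpS28b, and a motif 7 and a CGATA in RpL22. Those of RpL23A (chr3L:1668694-1668794, minus strand), which has the highest signal of the 4, and RpL17 (chrX:6744253-6744353, minus strand) hold none of the marked words.
RpS28b: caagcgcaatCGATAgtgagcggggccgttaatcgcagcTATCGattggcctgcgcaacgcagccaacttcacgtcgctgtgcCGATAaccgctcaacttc
RpL22: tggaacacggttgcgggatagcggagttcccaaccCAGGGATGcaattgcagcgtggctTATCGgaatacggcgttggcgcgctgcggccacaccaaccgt
RpL23A: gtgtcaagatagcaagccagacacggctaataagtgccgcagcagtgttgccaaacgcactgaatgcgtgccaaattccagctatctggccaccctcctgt
RpL17: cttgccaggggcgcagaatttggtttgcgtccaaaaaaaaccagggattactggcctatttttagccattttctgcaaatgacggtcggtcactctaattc

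Upstream summits belonged to many genes and rarely more than once to each. They were nearest to the TSSs of 825 of the 13968 protein-coding genes of the Ensembl annotation (5.91%), of which 772 had 1 summit, 46 had 2, 5 had 3 and 2 had 4. The other chromosomal peaks were 601 summits with coding TSSs on both strands within 500 bp (both-strand summits), 237 downstream of the nearest one-directional coding TSS (downstream summits), 98 within 500 bp of TSSs of other gene types only, and 1987 over 500 bp from any TSS (distal summits). For 575 of the 887 upstream summits (64.8%) the nearest TSS was the outermost 5′ end of its gene, and for the remainder it was an internal start of a longer gene. Of all 887, 483 summits lay between genes (54.5%), 300 in introns (33.8%), 97 in non-coding parts of exons (10.9%) and 7 in coding exons (0.789%).

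The neighbours behind the intergenic upstream summits lay on either strand. Of the 483, the next gene on the far side of the summit was on the same strand for 307, so that its 3′ end faced the summit, and on the other strand for 176. The rule itself removes summits with a coding TSS of the other strand within 500 bp, and the surplus lay within that distance, with 147 neighbours on the same strand and 20 on the other. Among the 316 summits whose neighbour lay farther away, 160 were on the same strand and 156 on the other. The edge of that neighbour was a median of 721 bp away (quartiles 299.5 and 1818 bp). In all, 39 upstream summits (4.40%) had a TSS of a non-coding gene on the other strand within 500 bp, which the rule allows, and 28 had TSSs of 2 or more coding genes of the same strand within that distance. One summit lay equally far from TSSs on either side of it and was counted as upstream.

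The summits clustered at a modest distance from the TSS instead of piling up on it. The median distance was 171 bp upstream in the main list (quartiles 94.5 and 266 bp), 172 bp in replicate 1's list and 175 bp in replicate 2's list. The fullest 50 bp bin was 150 to 199 bp, with 156 summits (17.6%), while 103 lay within 49 bp of the TSS and 34 lay at 450 to 500 bp. The rule bounds these distances, as it leaves out summits downstream of the TSS, and the median moved with its limit. Counted as negative upstream, the median was -123 bp with a limit of 250 bp and -218 bp with 1000 bp. Both-strand summits sat a median of 89 bp upstream of the nearest coding TSS. Each replicate's summits lay close to those of the main list, which was made from both. Where a replicate's own list had an overlapping peak, its summit lay a median of 10 bp (replicate 1, 577 peaks) and 11 bp (replicate 2, 634 peaks) from that of the main list. It lay within 50 bp in 89.8% and 90.5% of cases. The summits of the 2 replicates were not compared with each other, so these values do not measure how far they differ.

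**Figure D1:**
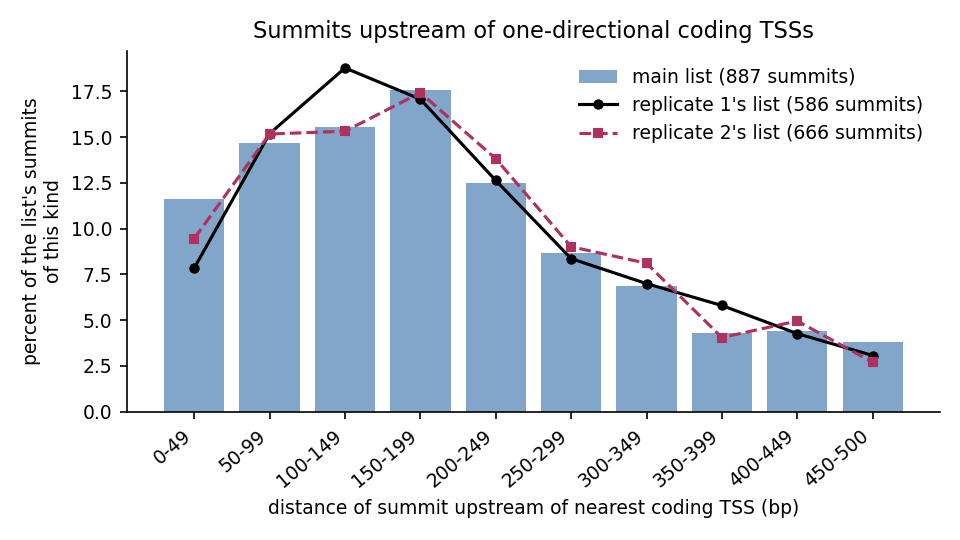
Share of upstream summits (y axis, percent of the 887, 586 or 666 in each list) by distance upstream of the nearest coding TSS (x axis, bp bins) in the main list (bars) and in the lists of replicate 1 (circles) and replicate 2 (squares). The main list and replicate 2's list peak at 150 to 199 bp, with 17.6% and 17.4%, and replicate 1's list peaks one bin nearer, at 100 to 149 bp, with 18.8%.

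The summits nearest to the limits of the rule had the following signals. The summits just inside 500 bp belonged to Boot (500 bp, signal 216), jar, an unconventional myosin (499 bp, 173), and Sqor, a sulfide:quinone oxidoreductase (497 bp, 87.8). Just outside it were ph-p, a Polycomb group gene (501 bp, 1150.2), CG46319 (502 bp, 70.1) and Nadk1a (504 bp, 147). At the other edge, the summits of the ABC transporter gene MRP, the SUN-domain gene koi and the growth-control kinase gene hpo lay exactly at a TSS (81.6, 65.6 and 65.5), and those of Tig (97.0), mbl (5.65) and CG42806 (52.5) lay 1 or 2 bp downstream and so fell outside.

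Signal is the authors' score for each peak, on a scale that is not stated, and serves here only for ranking and description. Upstream summits had a median signal of 100 (quartiles 68.5 and 169, range 2.52 to 4549.9), against 102 for both-strand, 69.99 for downstream and 84.3 for distal summits and 89.1 for all chromosomal peaks. The ratio of the median of upstream summits to that of all peaks was 1.12 in the main list, 1.08 in replicate 1's list and 1.04 in replicate 2's list. Upstream summits made up 19 of the 100 and 145 of the 500 strongest peaks, while they were 23.3% of all peaks, so that their share was lower among the first 100 and higher among the first 500. In all, 498 of the 887 (56.1%) exceeded the median of all peaks. All 20 upstream summits with a signal under 20 lay in intervals that overlapped another peak of the list, as 69 did in all, so the weakest of them share DNA with another listed peak. Most intervals, 667 of 887, had the same width of 336 bp.

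The strongest upstream summit in the data belonged to t-cup. This testis gene, one of the comet and cup genes transcribed after meiosis in male germ cells, had its summit 446 bp upstream of the TSS, in an intron of bun, with a signal of 4549.9 in the main list, 2446 in replicate 1's list and 2126 in replicate 2's. It ranked first of all 3810 peaks. Next came alpha-Est8, a carboxylesterase gene of the alpha-esterase cluster, whose summit 231 bp upstream had 2570.4 in the main list, 1327 in replicate 1 and 1257 in replicate 2. Of the 887, t-cup had the highest value in either replicate, and alpha-Est8 had the next.

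Housekeeping, signalling and transport genes stood side by side among the next ranks. CG14100 had a summit 90 bp upstream with 851 in replicate 1 and 966 in replicate 2. Ugalt, the Golgi transporter of UDP-galactose, had one 39 bp upstream with 813 and 992 in replicates 1 and 2. mRpL41, a protein of the mitochondrial ribosome, had one 130 bp upstream with 632 and 768. All 3 were higher in replicate 2. All 5 summits whose GC-rich windows are printed above, alpha-Est8 among them, were higher in replicate 1. CG32301 had 734 in replicate 1 and 510.2 in replicate 2, and Srrm234, a relative of the mammalian SRRM splicing regulators, had 581 and 437. MsR2, a receptor for the neuropeptide myosuppressin, had 649 and 354, and CG4565 had 586 and 374. Over the 491 upstream summits listed in both replicates, 17 of the 27 with a GC-rich word were higher in replicate 1 (median log2 ratio 0.12), against 184 of the 464 without one (-0.10); this contrast was noticed in the data and not tested, and the A+T content, with medians of 49.5% and 69.3%, differed between those sets as well.

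The other members among the 25 strongest had main-list signals from 607 to 1137 and all were in both replicates' lists. They included eIF6, which keeps ribosomal subunits apart (1137), CAP, a vinculin-binding adaptor (1000.5), PNPase, a mitochondrial RNA exonuclease (988), Fkbp14, a peptidyl-prolyl isomerase of the endoplasmic reticulum (855), and CG18549 (838). Lower in the same group stood gish, a casein kinase I (755), Sox14, a transcription factor induced by ecdysone (755), px, a wing vein gene (717), CG1635 (684), CG1888 (675), CG5273 (655), CG31145 (639), Tina-1 (625), MFS10 (620.5), Rtnl1, a reticulon of the endoplasmic reticulum (619), and amon, a prohormone convertase (607). Distances in this group of 25 ran from 39 bp at Ugalt to 467 bp at CG32301.

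A few genes had 3 or 4 upstream summits. Rtnl1 had 4, all in introns, with signals of 619, 269, 130 and 95.4. dnc, the cAMP phosphodiesterase gene of the memory mutant dunce, had 4, of which the weakest (7.19) overlapped a stronger one (235), the others being 449 and 113. The genes with 3 summits were CAP (1000.5, 187 and 101.1), spi, the EGF receptor ligand Spitz (364, 106 and 58.6), the tyrosine phosphatase gene Ptpmeg2 (292, 287 and 135), Moe, the actin linker moesin (159, 120 and 73.3), and the palmitoyltransferase gene Dnz1 (58.1, 14.9 and 2.52). At spi and Dnz1 too, as at dnc, summits lay in overlapping intervals, so these are not separate observations of each start.

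Upstream summits were in the replicates' own lists more often the higher their signal. Of the 887, 491 (55.4%, 95% Wilson interval 52.1 to 58.6, which covers the counting of peaks only) overlapped a peak in the lists of both replicates by at least 1 bp, against 48.9% of all chromosomal peaks. A further 86 were in replicate 1's list only, 143 in replicate 2's only and 167 (18.8%) in neither, against 22.0% of all peaks in neither. Median main-list signals were 157 for those in both, 74.9 for those in one and 58.8 for those in neither. All of the 50 strongest, 97.7% of ranks 51 to 222, 86.0% of ranks 223 to 444, 31.7% of ranks 445 to 665 and 5.41% of ranks 666 to 887 were in both. Each interval was matched to the strongest overlapping peak of a replicate, so a weak summit can count through its neighbour's peak. Both RpS7 summits (141 and 9.11 in the main list) carried 73.2 in replicate 1 and 77.0 in replicate 2. The authors' conservative version of the list overlapped 794 upstream summits (89.5%), against 86.7% of all peaks.

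Where both replicates had a listed peak, their scores moved together. Over the 491, Spearman's rho between the replicates' signals was 0.87 and Pearson's r of the log2 signals was 0.92. These describe peaks selected for being in both lists, and the points share the 2 libraries. Neighbouring summits matched to the same replicate peaks enter more than once. The median log2 ratio of replicate 1 to replicate 2 was -0.09 (SD 0.37), 201 summits were higher in replicate 1, and 490 were within 2-fold. The exception was Apoltp, a lipid transfer particle gene, with 73.1 in replicate 1 and 35.4 in replicate 2. CG42808 (75.5 and 38.6) and CG42671 (153 and 79.9) came next on that side. On the other side were the transcription factor gene apt (46.9 and 92.3), the dual oxidase gene Duox (38.0 and 74.6) and Hacl (44.0 and 84.3). Among summits in neither thresholded list the strongest in the main list were pelo, a ribosome rescue factor (101.2), smg, a repressor of maternal mRNAs (87.0), and MICU3, a regulator of mitochondrial calcium uptake (86.3). Of the 167 in neither, 151 had a counterpart in the ranked, unthresholded lists of both replicates with its summit at most 100 bp away.

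**Figure D2:**
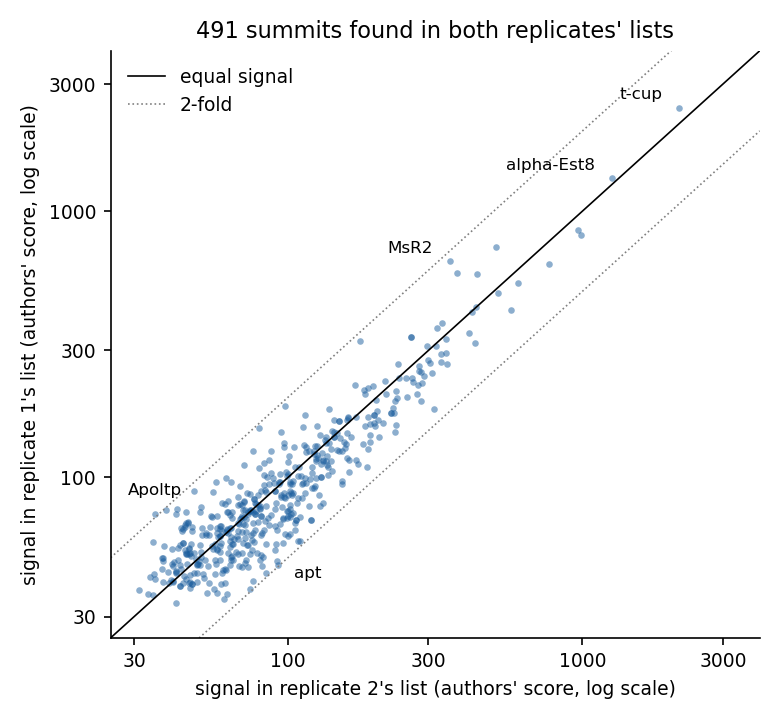
Signal of each of the 491 upstream summits found in both replicates' lists, in replicate 1 (y axis) against replicate 2 (x axis), both the authors' score on log scales; the solid line marks equal signal and the dotted lines a 2-fold difference. The points follow the solid line from t-cup at 2446 and 2126 down to values near 40, and Apoltp, at 73.1 and 35.4, is the point outside the dotted lines.

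The DNA at and before upstream summits held more A and T than the DNA toward the gene, a drop shared by promoters with no peak. In windows reaching 50 bp to either side of their centre, used for all sequence counts, the A+T content was 64.4% at the summit, 61.9% in windows centred 300 bp farther upstream and 53.8% in windows centred 300 bp toward the gene. As the upper quartile of the distance to the TSS was 266 bp, most windows of this last kind were centred past the TSS. Summit windows had 65.9% in replicate 1's list and 65.4% in replicate 2's. Windows at the same median distance of 171 bp before 8887 one-directional promoters with no peak within 500 bp had 62.8%, and those before all 13968 coding genes had 63.9%, close to the upstream summits. Both references used only the outermost 5′ end of each gene, whereas such an end was the nearest TSS for 64.8% of upstream summits. All chromosomal peaks had 63.2%, both-strand summits 68.2%, downstream summits 55.8% and distal summits 62.2%. The content differed along the signal ranks, from 66.5%, 68.7% and 67.1% in the first 3 rank groups to 62.9% and 59.7% in the last 2, and it was lowest, at 57.0%, for summits within 99 bp of the TSS. In that near group it was below the 58.6% of promoters with no peak at the same distance, whereas the 4 groups beyond had 65.8% to 68.3% against 61.0% to 62.8%. Promoters with no peak showed the drop too, from 62.7% at 300 bp before the TSS to 53.4% at 200 bp past it. At the TSSs of upstream summits the same positions had 64.3% and 54.3%.

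**Figure D3:**
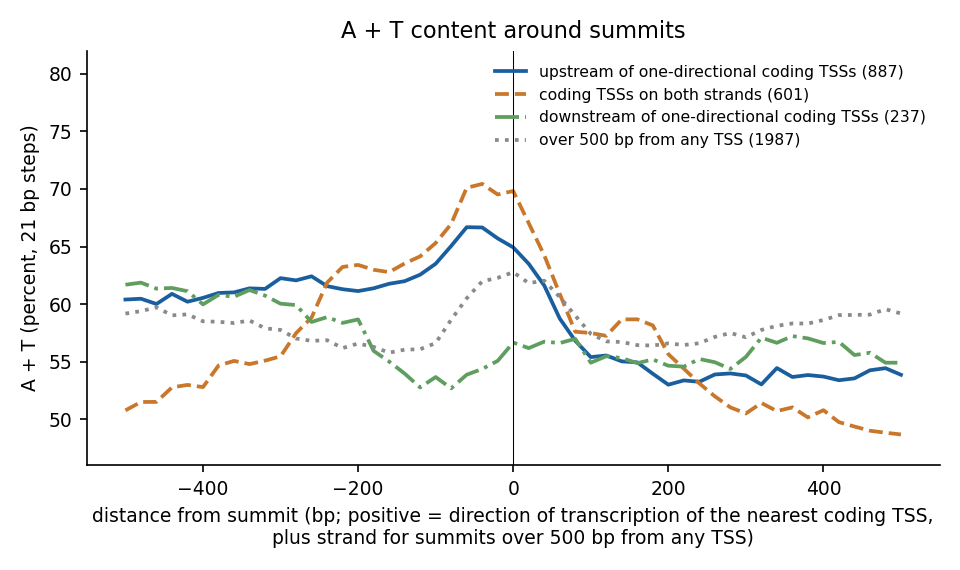
A+T content in percent (y axis, 21 bp steps) by distance from the summit in bp (x axis, positive in the direction of transcription of the nearest coding TSS, plus strand for distal summits), for upstream, both-strand, downstream and distal summits. The curve of upstream summits is highest just before the summit and drops toward the gene, with 53.8% in windows centred 300 bp into that side against 61.9% on the other.

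Of 36 listed words, the one that exceeded the mean of the flanks by most was the TATA box word TATAAA. It was in 197 summit windows of 887 (22.2%), against 18.4% of upstream flanks. Downstream flanks, mostly centred past the TSS, held it in 7.78% of cases, and all chromosomal peaks in 19.8%. It was also in 18.1% of the promoters with no peak, and in 20.1% of windows 171 bp before all 13968 coding genes. A+T content moves with it: the 20 6-letter words with the largest excess contained no G or C at all, led by AAATAT (295 summit windows, 205 upstream and 123 downstream flanks). How much of the excess of TATAAA is base composition was not tested. The homeodomain core TAATTA was in 9.92% of summit windows, against 10.03% of upstream and 3.61% of downstream flanks, exceeding their mean by 3.10 points. GAGAGAG, the word of GAGA factor, was in 2.03% against 4.74% and 4.28% of the flanks. CACGTG (1.01% against 1.58% and 2.03%) and the early-embryo word CAGGTAG of Zelda (0.451% against 0.564% and 0.451%) were not above their flanks either.

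CGATA and motif 7 were concentrated in the summits nearest to the TSS. CGATA was in 167 of the 887 windows (18.8%), against 11.8% and 12.6% of the flanks, and 15.1% of all chromosomal peaks held it; 14.0% of windows before all coding genes did. Among the 233 upstream summits within 99 bp of the TSS it was in 84 (36.1%), against 13.6%, 10.6%, 13.1% and 13.7% in the 4 next distance groups. In the replicates' own lists the share within 99 bp was 33.3% and 37.8%. Promoters with no peak had 22.1% at the median distance of the near group and 13.0%, 11.9%, 11.9% and 11.8% at those of the next groups. Motif 7 was in 70 windows (7.89%), against 2.93% of either flank, and 5.35% of all chromosomal peaks held it, as did 3.74% of windows before all coding genes. It was in 48 of the 233 near summits (20.6%; 17.8% and 20.7% in the lists of replicates 1 and 2), against 5.58% of promoters with no peak at that distance, and in 4.42% or less in the groups beyond. Both-strand summits, which as a class lie nearer to a TSS, held CGATA in 23.0% and motif 7 in 11.8% of windows, and distal summits in 11.3% and 2.52%.

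The full DRE, TATCGATA, was rarer and nearer still. It was in 22 upstream windows (2.48%), against 0.676% and 0.451% of the flanks and 1.25% of windows before all coding genes. Of all chromosomal peaks 1.44% held it, and both-strand summits held it more often, in 4.49% of windows. Of the 22 upstream windows, 20 were among the 233 near summits (8.58%), against 3.81% of the promoters with no peak at that distance. Every DRE also counts as a CGATA. Near summits held CGATA or motif 7 in 103 of 233 cases (44.2%), and both in 29. TATAAA had the opposite layout, in 12.9% of near summits and 22.7% of promoters with no peak at that distance, but in 27.9% against 17.8% at 100 to 199 bp. The windows of the near group in promoters with no peak take in the usual place of the TATA box. CGATA became more frequent toward the weaker summits, with 12%, 15.1%, 17.6%, 19.9% and 23.4% over the 5 rank groups, and motif 7 was in 0 of the 50 strongest. The median distance to the TSS differed along these groups as well, with 172.5, 187.5, 167.5, 164 and 156 bp. How much of the change in CGATA goes with distance was not tested. In the near group the median signal was 82.9 with either word and 87.3 without.

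**Figure D4:**
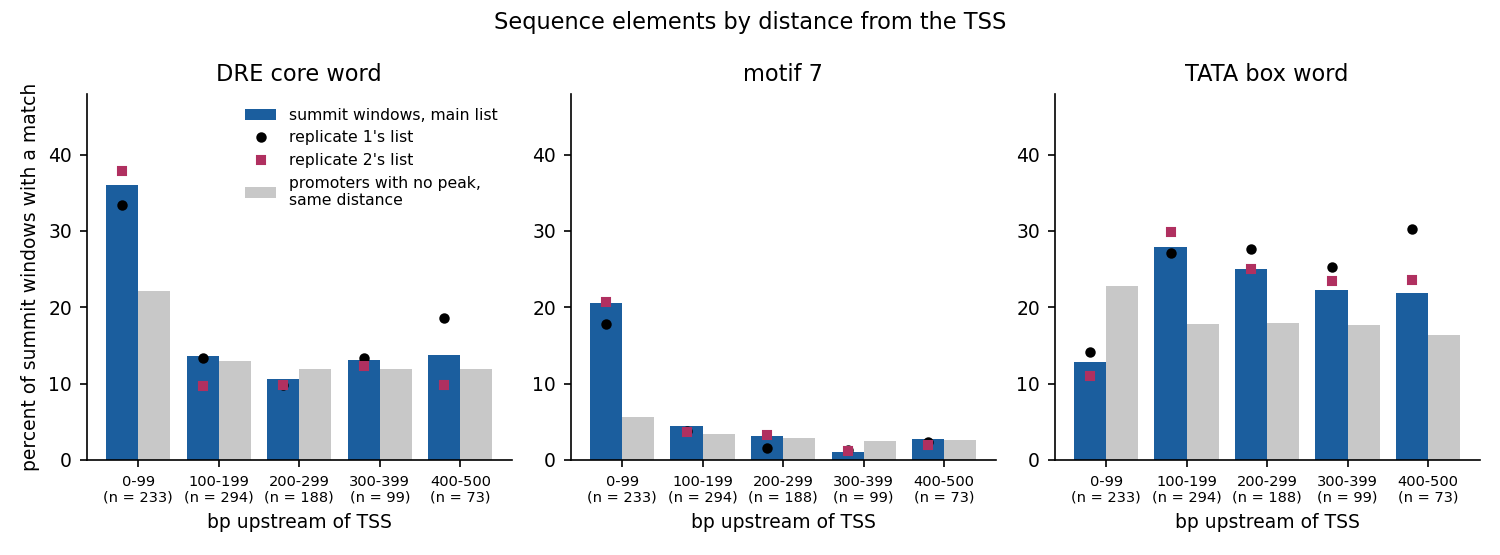
Percent of summit windows with a match (y axis) for the DRE core word CGATA, motif 7 and the TATA box word, by distance of the summit upstream of the TSS (x axis, bp), for upstream summits in the main list (dark bars), in the lists of replicate 1 (circles) and replicate 2 (squares), and for 8887 promoters with no peak read at the same median distance (pale bars). CGATA and motif 7 stand at 36.1% and 20.6% in the nearest group and at 13.7% and 4.42% or less beyond it, while the TATA box word is lowest in the nearest group, at 12.9%.

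Genes of cytoplasmic ribosomal proteins had upstream summits more often than coding genes at large and close to the start. Of 88 such genes 21 (23.9%) had one, set beside 5.91% of all protein-coding genes, at a median of 33 bp upstream. Of the 88, 25 were nearest to a both-strand summit and 7 to a downstream one. A gene can count in several classes, and no background over all coding genes is given for these counts. The share depends on the limits of the class: it was 35.2% when TSSs were sought within 250 bp and 14.8% within 1000 bp, and it was 14.8% in replicate 1's list and 20.5% in replicate 2's. CGATA was in 16 of their 23 summit windows and motif 7 in 7; without them, CGATA was in 70 of the 212 other near windows (33.0%) and motif 7 in 41 (19.3%).

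The signals of ribosomal protein genes were moderate. RpL23A had 245 in the main list (110 in replicate 1 and 136 in replicate 2), RpS28b 215 (98.4 and 119), RpL22 181 (84.1 and 97.4) and RpL17 155 (77.1 and 80.2). Of the 21 genes, 13 were in both replicates' lists. RpL37-1 (57.8), in neither list, and RpL36A (60.5), in replicate 1's list only, were the genes with the lowest main-list values.

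Of the 29 gene lists, 11 had a higher share of genes with an upstream summit than the 5.91% of all coding genes and 18 a lower one, mostly on few genes. Translation factors had 6 of 52 genes (11.5%), again near the start at a median of 47 bp: eIF6, eEF1gamma (240 in the main list, 125 and 115 in replicates 1 and 2), eIF3c (155), eIF5B (149), eEF1alpha1 (129) and eIF2A (88.2). Chaperones and heat shock proteins had 6 of 43 (14.0%), led by the small heat shock gene Hsp27 (472, with 236 in replicate 1 and 239 in replicate 2) and the J-domain gene mrj (338), with Hsp83 (143) and Hsp26 (125) after them. Muscle genes had 7 of 39 (17.9%), among them the giant proteins Msp300 (273) and sls (170.0) and the heart factor tin (150.1); 4 of these 7 were below 56 in the main list. Neurogenesis genes had 5 of 40 (12.5%), with elav, the neuronal RNA-binding protein (406), and numb, the Notch inhibitor (313), both in the lists of both replicates.

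Patterning and regulatory lists had 1 to 4 genes each, with shares on both sides of the 5.91%. Hox genes had 2 of 8 (25%), Dfd (71.1) and Antp (62.3), neither in a replicate's thresholded list. Nuclear hormone receptors had 4 of 21 (19.0%), Eip75B (114), Hnf4 (88.5), eg (60.1) and ERR (58.0). Segmentation genes had 3 of 36 (8.33%), bowl (244), nkd (133) and ptc (49.6). The Polycomb and Trithorax groups had 2 of 36 (5.56%), Psc (79.6) and esc (52.8), and BEAF-32, itself the insulator protein that binds CGATA, was the one insulator gene of 25 (4%) with an upstream summit (149, with 75.6 in replicate 1 and 70.2 in replicate 2). DNA replication genes had 4 of 39 (10.3%), with Dp (274) highest, then chif (131), PolA1 (66.1) and PCNA (51.3), and mitosis genes 4 of 63 (6.35%), cnn (82.8), asl (79.8), Cdc27 (74.9) and fzr (65.5).

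Several housekeeping and sensory lists had lower shares than the 5.91% of all coding genes. Mitochondrial ribosomal proteins had 2 of 73 (2.74%), mRpL41 and mRpL4 (120), with mRpL41 among the 5 strongest upstream summits. Oxidative phosphorylation had 2 of 87 (2.30%), UQCR-14 (58.0) and ND-B17 (57.2), and the proteasome 1 of 48 (2.08%), Rpn11 (52.2). Aminoacyl-tRNA synthetases (32 genes), spliceosomal proteins (36), nuclear pore proteins (23) and mitochondrial import proteins (16) had 0, but lists this short would hold few at the share of all coding genes. Chemoreceptors and odorant-binding proteins had 2 of 231 (0.866%), cuticle and tracheal genes 3 of 162 (1.85%) and histone genes 1 of 118 (0.847%), His3.3B (63.4). The vacuolar ATPase (6.06%), translocon (5.26%) and autophagy (5%) lists were near the share of all coding genes, and the vesicle coat (4%), Mediator (2 of 54), RNA polymerase (3.33%) and germline (2.33%) lists were lower, each on 1 or 2 genes, the strongest being the translocon gene TRAM (530.3) and the piRNA gene papi (369). Gene lists with many divergently arranged genes can hold fewer one-directional promoters, and the shares were not corrected for that.

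Along the chromosomes the upstream summits followed the coding genes loosely. The X chromosome had a summit at 7.10% of its coding genes and the arms 3L, 2R, 2L and 3R had one at 6.17%, 6.03%, 5.83% and 5.03%. Chromosome 4 had 1 summit among 80 coding genes and the Y chromosome 0 among 23. Median signals on the 5 large arms lay between 90.4 and 112.

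The GC-rich words of the strongest distal peaks were uncommon upstream of one-directional promoters. They were in 47 of 887 summit windows (5.30%), against 4.28% and 7.67% of the flanks, 4.52% of promoters with no peak and 4.31% of windows before all coding genes; 7.69% of all chromosomal peaks and 10.1% of distal summits held one. Because the words were taken from the 150 strongest distal peaks, the distal shares contain the choice and serve only as a mark of height. Of the 50 strongest upstream summits 6 (12%) held one, against 31 of the 50 strongest distal summits (62%). Equal ranks were not equal signals, with a median of 605 in the 50 upstream and 1087 in the 50 distal summits. In the following rank groups the shares were 2.91%, 2.25%, 7.69% and 6.31% for upstream summits and 27.3%, 7.66%, 6.79% and 8.11% for distal ones. Of the 6, the windows of alpha-Est8, CG32301, Srrm234, MsR2 and CG4565 are printed above, and 3 of these 5 had an A+T content under 44% (38.6%, 39.6% and 43.6%), well below the 66.5% of the 50 strongest as a group.

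**Figure D5:**
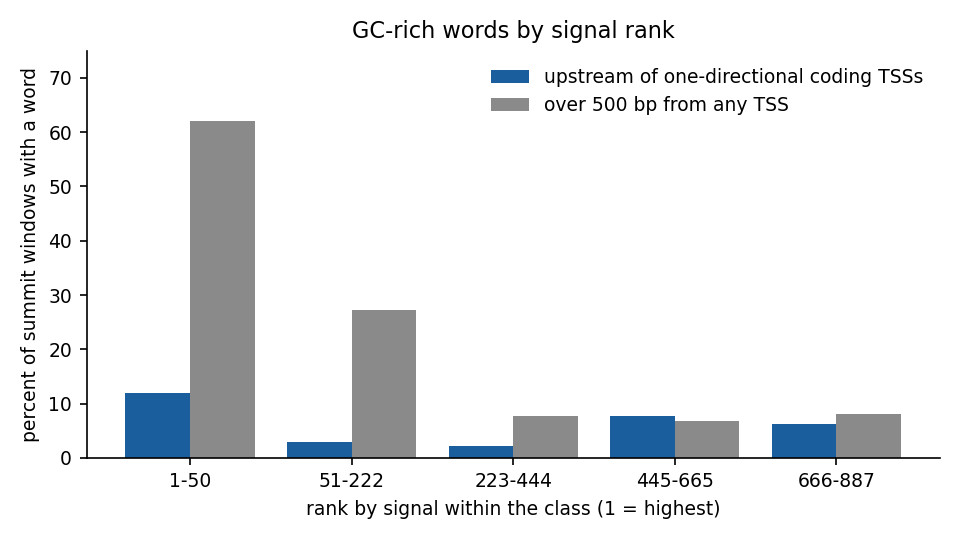
Percent of summit windows holding a GC-rich word (y axis) by rank of signal within the class (x axis), for upstream summits (left bar) and distal summits (right bar). The words were chosen on the 150 strongest distal summits, whose bars are therefore high by construction at the left; upstream summits reach 12% in their first 50 and stay between 2.25% and 7.69% after that.

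A word learned from the upstream summits themselves shares the letters ATCGATA with the DRE. Of all 8-letter words, ranked by their excess over the flanks divided by the square root of the flank count plus 2, the first was ATCGATAG, in 21 of the 523 windows on 2L, 2R and X (flank mean 2). On the arms not used for choosing it, it was in 10 of 363 windows, against 3 upstream and 1 downstream flanks. It was also in 24 windows of both-strand summits and 5 of distal ones. The next word, ATTTAAAA, has no G or C; it was in 36 windows of the 523 (flank mean 8.5) and in 25 of the 363, against 9 and 6 flanks. The other 3 of the first 5 words also lack G and C. AAAAATTA was in 26 of the 363, against 14 upstream and 4 downstream flanks, and ATTTAATA in 14, against 8 and 2. TTAAATAA, in 33 of the 523 (flank mean 8.5), was in 11 of the 363, fewer than the 15 upstream flanks that held it (6 downstream).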

How the data were processed

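Anti-GFP ChIP-seq peak lists of 2 biological replicates were analysed. Per the labels' protocols chromatin was sonicated; the labels and headers do not name the aligner or peak caller, and read depth is unknown. Each deposited narrowPeak row holds a signal, a score of unstated scale given by the authors, and an IDR score of at least 830 in the thresholded lists. The control was not analysed here. Of 3815 peaks in the main list, 5 off the 7 chromosomes were left out.

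TSSs came from Ensembl release 115 (BDGP6.54), all protein-coding transcripts. Mature microRNAs (481 entries of 30 bp or less) were not used as TSSs. Windows of promoters with no peak and of all coding genes were placed from the outermost 5′ end of each gene. Sequence came from the RefSeq dm6 genome. Words were sought on both strands within 50 bp of the summit and in flanks centred 300 bp away; learned words were ranked by excess over the flanks relative to the square root of the flank count plus 2. With 1 group there is no test between conditions, and peaks are not replicates, so all comparisons are descriptive. Python 3.11.15, pandas 2.3.3 and matplotlib 3.10.9 were used; scripts were tested on simulated data. Named genes were the 25 strongest, the extremes of distance and replicate ratio, genes with 3 or more summits, and up to 4 per gene list. The members, 29 gene lists and 36 words were chosen with earlier results of these data known, and the ribosomal protein pattern was widened to hyphenated symbols after the data were seen.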

Additional observations from a re-analysis of the deposited data

How the results depend on the processing

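In the alternative runs that recomputed it, the ratio of the median signal to that of all peaks stayed above 1. In the same runs the share of ribosomal protein genes stayed above that of all coding genes. Neither was recomputed for peaks above the median signal or under changed overlap rules or word windows. The other values were recomputed for upstream summits alone, with no comparison to flanks or other promoters. The number of upstream summits was 498 when peaks above the median signal were kept and 586 to 666 in the replicates' own lists. Their share of peaks was 21.3% and 25.1% with TSS distances of 250 and 1000 bp, 16.2% with one TSS per gene, 22.3% with no TSS of any type on the other strand and 24.4% to 25.6% in the replicates' lists. The median position, negative upstream, was -123 and -218 bp with 250 and 1000 bp, -166 bp in the conservative list, -158.5 bp with one TSS per gene, -177 bp above the median signal and -175 to -172 bp in the replicates' lists. The ratio of medians was 1.08 with 250 bp and 1.04 to 1.08 in the replicates' lists. Presence in both lists was 88.8% above the median signal. TATAAA was in 24.1% with one TSS per gene, 25.1% above the median signal, 12.6% within 25 bp, 35.1% within 100 bp and 22.8% to 24.2% in the replicates' lists. Genes with a summit were 4.26% with one TSS per gene and 3.97% to 4.51% in the replicates' lists; ribosomal protein genes were 35.2% and 14.8% with 250 and 1000 bp and 14.8% to 20.5% in the replicates' lists. CGATA shares within and beyond 99 bp, compared after seeing the data, ran from 33.3% to 38.0% and from 10.2% to 13.7%. No paired analysis was possible because the study has 1 group. Without reads or a control, depth and recovery that does not need the fusion were not tested.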
